A study of Mus musculus with 4 samples.

Results

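The genes described here are 10 genes of ribosomal DNA (rDNA) transcription and silencing, taken by name from a fixed list of factors that work in the nucleolus: Rrp8, Baz2a, Sirt1, Sirt7, Ubtf, Polr1a, Polr1b, Ttf1, Ncl and Npm1. They are 10 of the 21938 protein-coding genes of the annotation. Chromatin accessibility at their promoters, inside them and around them was read from ATAC-seq peak lists. In this assay a transposase cuts open DNA, and a peak is an interval where a peak caller found a pile-up of the resulting fragments.

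The cells were E14, a mouse embryonic stem cell (ESC) line, grown in serum with LIF, infected with a pLKO lentivirus, selected in puromycin at 2 µg/ml for 2 days and collected 2 days later. The virus carried a short hairpin RNA to GFP in 1 library (shGFP) and to luciferase in 3 (shLuc replicates 1, 2 and 3), neither of which is a mouse gene. All 4 libraries are therefore non-targeting controls that share the virus and the selection, and no hairpin was directed at a gene named here. The comparison asks whether the chromatin of these genes looks the same in control libraries, and with 1 library against 3 an exact permutation test cannot go below p = 0.25, so no test was run.

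Mouse cells carry many tandem copies of the rDNA repeat, which RNA polymerase I transcribes into the precursor of ribosomal RNA. UBF, the product of Ubtf, binds the repeat and takes part in its transcription, and the terminator factor TTF-I, the product of Ttf1, stops the polymerase. Part of the copies is kept silent by complexes such as NoRC, which contains the product of Baz2a, and eNoSC, which contains the products of Rrp8 and Sirt1, while nucleolin (Ncl) and nucleophosmin (Npm1) are abundant nucleolar proteins. ESCs grow fast and are known for high ribosome production. The genes below are the ordinary single-copy genes of these proteins, not the rDNA itself, and a peak at a promoter shows accessible DNA, not the level of the RNA.

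The lists held 41943 peaks in shGFP and 17860, 41401 and 31585 peaks in shLuc replicates 1, 2 and 3. They give positions only, so they do not show the depth, and the width of a peak is its only value. The shLuc replicate 1 list is the shortest and has the narrowest peaks at promoters, with a median of 704 bp over coding genes beside 966, 932 and 897 bp in shGFP and shLuc replicates 2 and 3. Among 10 ESC markers, a promoter peak was listed in every library for Zfp42 and Tfcp2l1, in some libraries for Esrrb, Klf4 and Klf2, and in none for Pou5f1, Nanog, Sox2, Tdgf1 and Dppa4. Among 6 fibroblast markers it was listed in every library for Col1a1 and Thy1, in 2 libraries for Col1a2 and in none for Col3a1, Postn and Fap. So 5 of the 10 ESC markers, with Pou5f1, Nanog and Sox2 among them, had no promoter peak listed, as did 35.3% of coding genes. A promoter peak in every library was listed for 42.5% of coding genes. An unlisted peak can mean closed DNA, too few reads or a locus not analysed here. Western blots of OCT4 and NANOG in the paper showed no differentiation in its selected knockdowns. A part of other cells in the peaks at the nucleolar genes was not tested.

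The promoter sequences of 5 genes with a peak in every library and 2 genes without one at this position are shown first, so that the DNA can be read beside the peaks. Each is the RefSeq promoter window of 300 bases (assembly GRCm38.p6, which has the coordinates of mm10), 250 bases before and 50 bases after a start, read 5′ to 3′ along the strand of the gene. Capitals mark matches, on either strand, to the GC box GGGCGG, the CCAAT box CCAAT, the E-box CACGTG and the ETS core CCGGAA. RefSeq windows were found for 9 of the 10 genes, 15 windows in all.

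Rrp8 (chr7:105736535-105736834, minus strand): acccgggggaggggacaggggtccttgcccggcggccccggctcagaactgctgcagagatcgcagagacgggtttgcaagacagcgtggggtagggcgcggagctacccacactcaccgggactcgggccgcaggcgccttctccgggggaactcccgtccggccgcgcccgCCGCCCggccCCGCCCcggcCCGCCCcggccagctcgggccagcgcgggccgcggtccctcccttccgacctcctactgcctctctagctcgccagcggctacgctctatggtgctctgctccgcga
Sirt1 (chr10:63338986-63339285, minus strand): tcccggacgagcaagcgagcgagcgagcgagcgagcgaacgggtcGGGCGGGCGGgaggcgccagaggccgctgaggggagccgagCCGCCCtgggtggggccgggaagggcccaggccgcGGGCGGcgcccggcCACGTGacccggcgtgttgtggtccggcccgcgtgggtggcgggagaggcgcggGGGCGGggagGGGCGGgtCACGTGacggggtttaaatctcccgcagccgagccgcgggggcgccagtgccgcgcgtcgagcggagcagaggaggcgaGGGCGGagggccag
Polr1b (chr2:129100746-129101045, plus strand): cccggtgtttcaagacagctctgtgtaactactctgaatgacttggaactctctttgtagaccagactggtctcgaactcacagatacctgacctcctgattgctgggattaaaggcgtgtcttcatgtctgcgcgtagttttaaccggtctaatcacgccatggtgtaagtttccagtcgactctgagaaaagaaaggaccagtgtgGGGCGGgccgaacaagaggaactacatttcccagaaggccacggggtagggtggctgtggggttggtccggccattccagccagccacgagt
Ttf1 (chr2:29060013-29060312, plus strand): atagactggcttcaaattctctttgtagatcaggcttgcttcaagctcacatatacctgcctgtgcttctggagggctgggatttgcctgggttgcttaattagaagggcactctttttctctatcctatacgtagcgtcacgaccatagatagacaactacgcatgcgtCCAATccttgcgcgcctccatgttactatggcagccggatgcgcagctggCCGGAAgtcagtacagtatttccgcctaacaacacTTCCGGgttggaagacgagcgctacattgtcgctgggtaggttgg
Ncl (chr1:86359406-86359705, minus strand): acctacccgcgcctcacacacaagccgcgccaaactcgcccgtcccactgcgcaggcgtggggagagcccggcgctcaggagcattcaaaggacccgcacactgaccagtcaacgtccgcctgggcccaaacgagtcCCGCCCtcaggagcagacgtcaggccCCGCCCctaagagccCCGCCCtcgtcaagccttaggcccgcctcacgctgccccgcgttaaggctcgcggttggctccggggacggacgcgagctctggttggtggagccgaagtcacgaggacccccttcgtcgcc
Baz2a (chr10:128092533-128092832, plus strand): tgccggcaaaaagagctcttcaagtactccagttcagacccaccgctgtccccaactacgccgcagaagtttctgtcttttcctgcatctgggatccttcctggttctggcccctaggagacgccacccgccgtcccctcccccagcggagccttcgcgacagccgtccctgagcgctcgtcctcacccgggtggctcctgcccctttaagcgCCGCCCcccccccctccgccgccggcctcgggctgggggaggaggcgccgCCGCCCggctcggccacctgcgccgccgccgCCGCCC
Ubtf (chr11:102319047-102319346, minus strand): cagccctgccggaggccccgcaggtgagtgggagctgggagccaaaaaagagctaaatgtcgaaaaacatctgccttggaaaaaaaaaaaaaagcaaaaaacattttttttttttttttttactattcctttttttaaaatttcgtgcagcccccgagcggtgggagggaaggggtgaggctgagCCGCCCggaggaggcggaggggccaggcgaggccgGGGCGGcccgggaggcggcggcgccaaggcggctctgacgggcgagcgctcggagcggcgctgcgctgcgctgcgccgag

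The Sirt1 and Ncl windows lay wholly inside a peak in all 4 libraries, the Rrp8 window wholly in 3 libraries and for 74 bases in shLuc replicate 1. In the Polr1b window 192, 218, 192 and 180 bases were in a peak (shGFP, then shLuc replicates 1, 2 and 3), and in the Ttf1 window 201, 300, 181 and 198. The Baz2a and Ubtf windows had no base in a peak in any library. The ratio of observed to expected CpG was 0.850 in the Baz2a window and 1.04 in the printed Ubtf window, the highest of the 6 Ubtf windows, beside 0.868 for Rrp8, 1.09 for Sirt1, 0.940 for Ncl, 0.779 for Ttf1 and 0.629 for Polr1b. Over 20150 windows of coding genes the median ratio was 0.588, with an interquartile range of 0.240 to 0.833. All 7 windows with a peak in every library were above that median. Of the 8 windows with no peak in any library, 5 were above it and 3 below, the latter being a second Rrp8 window (0.482) and 2 of Ubtf (0.466 and 0.373).

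The GC box was in 11 of the 15 windows, in 35.7% of all 32851 RefSeq windows, with the most, 8, in a Ubtf window without a peak (chr11:102317822-102318121) and 7 in the Sirt1 window. The Baz2a window held 3 GC boxes, as did those of Rrp8 and Ncl shown above, the printed Ubtf window held 2 and the Polr1b window 1. The 4 other Ubtf windows held 4, 3, 1 and 0. The CCAAT box was in 3 windows (37.4% of all), the ETS core in 2 (14.9%) and the E-box in 1, that of Sirt1 (7.15%). The TATA box TATAAA (13.6%) and the YY1 core AAGATGG (6.34%) were in none. No matches to different motifs overlapped in these windows, and 6 of the 15 windows belong to Ubtf, so windows are not independent genes. The motif shares are over all RefSeq windows and, unlike the CpG ratios, were not computed over windows of coding genes alone.

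A promoter peak is a peak with any base within 1 kb of the start of any GENCODE transcript of the gene (mouse release M21). All 10 genes had one in shGFP and 9 had one in each shLuc library, where the background over coding genes was 60.7% in shGFP and 46.8%, 60.3% and 55.1% in shLuc replicates 1, 2 and 3. In every library at once, 9 of 10 genes had a promoter peak, and the background was 42.5%. No gene of the 10 lacked one everywhere, as 35.3% of coding genes did. Counting only starts of protein-coding transcripts left 8 of 10 genes (background 41.4%), because the peaks of Ubtf are not at such a start. With 1 start per gene, 7 of the 10 had a promoter peak in every library (background 38.9%). The 10 genes were chosen with earlier results of these data known. Their shares are thus a description and not independent support. The plot of widths by library gives each value.

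**Figure D1:**
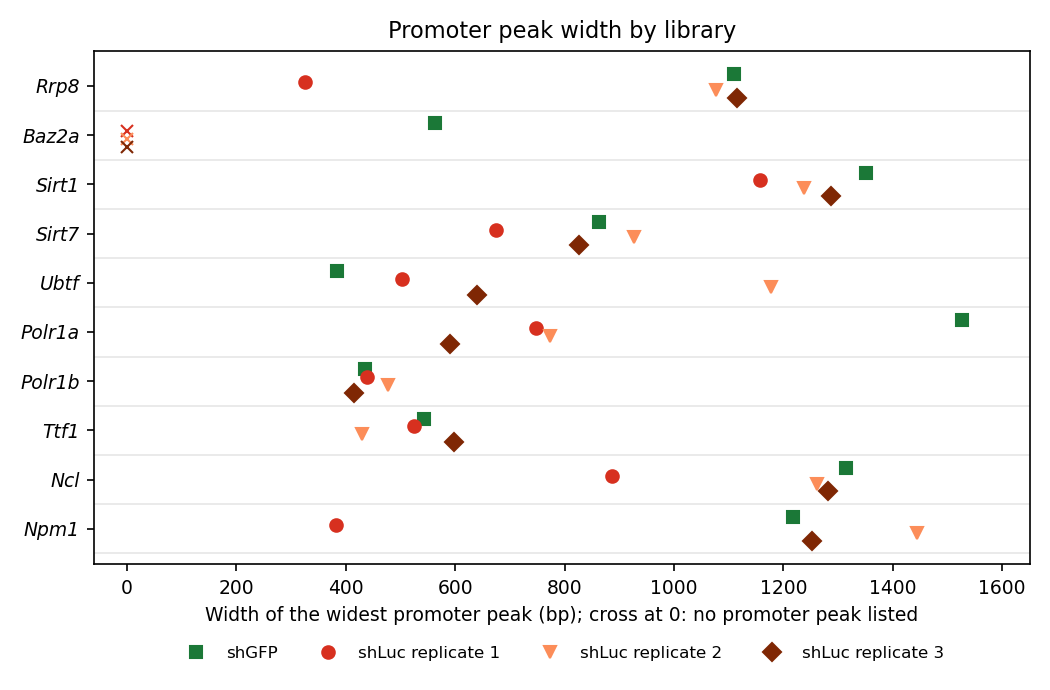
Width in bp (x axis) of the widest promoter peak of each gene (y axis) in the 4 libraries, 1 symbol per library, with a cross at 0 where no promoter peak was listed. Polr1b sits between 415 and 477 bp in every library, whereas Rrp8 and Npm1 are narrow in shLuc replicate 1 alone and Baz2a has a peak in shGFP alone.

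Among the silencing genes, Rrp8 encodes a nucleolar protein with a methyltransferase-like domain that binds silent rDNA. The gene (ENSMUSG00000030888.14, chr7:105731730-105737385, minus strand) had 1 promoter peak in each library, of 1110 bp in shGFP and 326, 1077 and 1116 bp in shLuc replicates 1, 2 and 3. The narrow peak of shLuc replicate 1 (chr7:105736283-105736608) ended 173 bp short of the nearest protein-coding GENCODE start, which the 3 other peaks covered. It did cover a non-coding GENCODE start (105736373) and the RefSeq start of the window printed above (105736584). The shLuc mean was 840 ± 445 bp (SD, n = 3), and shGFP lay within the shLuc range. A start of Ilk, a neighbouring gene, lies within 1 kb of the peak in every library. The peak therefore cannot be given to Rrp8 alone. No other peak lay inside Rrp8.

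Baz2a, which encodes the large subunit TIP5 of NoRC, was the exception. Its gene (ENSMUSG00000040054.16, chr10:128091577-128129303, plus strand) had a promoter peak of 563 bp in shGFP and none in the shLuc libraries, as did 1.77% of coding genes. The peak (chr10:128090826-128091388) ended 189 bp before the first start and 222 bp before the first protein-coding one, and was narrow for the library, with 8.77% of coding promoter peaks narrower. It was 48.3% GC with an observed to expected CpG ratio of 0.214, well below that of the CpG-rich window printed for the gene. No peak in any library overlapped the gene itself.

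Sirt1, a NAD-dependent deacetylase and the partner of the Rrp8 protein in eNoSC, had a wide promoter peak at the same place in every library. The widths were 1351 bp in shGFP and 1157, 1237 and 1287 bp in shLuc (mean 1227 ± 65.6 bp, SD, n = 3), so shGFP was 124 bp wider than the shLuc mean and above each shLuc library. In the 4 libraries 83.7%, 91.7%, 79.1% and 85.0% of coding promoter peaks were narrower, in the same order. The bases common to all 4 peaks made up 84.0% of the bases in any of them, the highest share among the 9 genes with a promoter peak in every library. The peak covered the starts at 63339032 and 63339035, which lie 42672 and 42669 bp inside the annotated gene (ENSMUSG00000020063.16, chr10:63319005-63381704, minus strand), because 1 transcript starts far upstream.

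At that upstream start of Sirt1 a second promoter peak was listed in shGFP (606 bp) and in shLuc replicates 2 (423 bp) and 3 (342 bp), between 815 and 841 bp away from it. A start of Dnajc12, a neighbouring gene, lies within 1 kb of this second peak. Sirt1 also had most of the gene body peaks: 3, 1, 2 and 2 in shGFP and shLuc replicates 1, 2 and 3. A region at chr10:63365898-63366751 was listed in all 4 libraries with widths of 818, 525, 545 and 642 bp. Its peak lay in an intron in 3 libraries and overlapped an exon in shLuc replicate 3. A region at chr10:63348202-63348918 was listed in all but shLuc replicate 1, and a 284 bp peak at chr10:63360567-63360850 in shGFP only.

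Sirt7, a nucleolar deacetylase that associates with RNA polymerase I, had a promoter peak of 863 bp in shGFP, and in shLuc it was 675, 926 and 826 bp wide (mean 809 ± 126 bp, SD, n = 3). shGFP lay within the shLuc range, and the common bases made up 72.4% of those in any library. The microRNA gene Mir6936 starts within 1 kb of it. At the other end of the gene (ENSMUSG00000025138.14, chr11:120618372-120625240, minus strand), a 759 bp peak of shLuc replicate 2 counted as a second promoter peak, since it came within 950 bp of a non-coding Sirt7 start. Peaks of 621 bp in shGFP and 614 bp in shLuc replicate 3 covered the same interval but stopped 1111 and 1043 bp short of that start. A start of Pcyt2 lies within 1 kb of all of these peaks.

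Of the genes of the polymerase and its factors, Polr1a encodes the largest subunit. Its gene is ENSMUSG00000049553.11 (chr6:71909053-71984935, plus strand). The peak at its start was 1527 bp wide in shGFP and 748, 774 and 590 bp wide in shLuc (mean 704 ± 99.6 bp, SD, n = 3). The difference of 823 bp is larger than the spread between shLuc libraries, and it was the largest among the 9 genes. The shGFP peak began at 71908531, beside 71908553, 71908546 and 71908698 in shLuc replicates 1, 2 and 3. It ended at 71910057, inside the gene, where the shLuc peaks ended between 71909287 and 71909319. A start of Ptcd3, a neighbouring gene, lies within 1 kb of this peak in every library.

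A second Polr1a peak, 392 to 467 bp from a non-coding start and 16411 to 16453 bp inside the gene, was 393 bp wide in shGFP and 349 and 327 bp in shLuc replicates 2 and 3, and was not listed in shLuc replicate 1. In the region it covers, 33.0% of words of 50 bases occur more than once in the genome. Reads with several equally good positions were placed at random, so this peak is less certain than the one at the start, where 7.17% of words were repeated.

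Polr1b, the gene of the second largest subunit (ENSMUSG00000027395.15, chr2:129100995-129126594, plus strand), had the promoter peak with the smallest shLuc SD, with widths of 435 bp in shGFP and 439, 477 and 415 bp in shLuc (mean 444 ± 31.3 bp, SD, n = 3). shGFP lay within the shLuc range and differed from the shLuc mean by -8.67 bp. The peak was narrow in every library, with 3.03%, 14.0%, 5.68% and 3.91% of coding promoter peaks narrower in shGFP and shLuc replicates 1, 2 and 3. It was as wide in the short list of shLuc replicate 1 as elsewhere, at 99.2% of the mean of the 3 other libraries.

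Ubtf encodes UBF, which coats active rDNA. All its promoter peaks lay about 10 kb inside the gene (ENSMUSG00000020923.17, chr11:102304560-102319742, minus strand), at or near the non-coding starts 102309440 and 102309908, with widths of 383 bp in shGFP and 503, 1177 and 640 bp in shLuc (mean 773 ± 356 bp, SD, n = 3). shGFP was narrower than each shLuc library, with a difference of -390 bp from the mean. The nearest protein-coding starts were 6584 to 7399 bp away, and no peak lay within 1 kb of any of the 9 protein-coding starts between 102316675 and 102319742. A looser pattern, a promoter peak in all 4 libraries but not in all 4 at a protein-coding start, was found for 1.11% of coding genes. All 6 RefSeq windows of Ubtf likewise had no base in a peak in any library.

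Ttf1 (ENSMUSG00000026803.17, chr2:29060262-29087656, plus strand) had promoter peaks of 542 bp in shGFP and 525, 429 and 598 bp in shLuc (mean 517 ± 84.8 bp, SD, n = 3), with shGFP inside the shLuc range. Although the widths were alike, the peak of shLuc replicate 1 was centred 63 bp before the start and those of the other libraries 80 to 147 bp after it. The bases common to all made up 42.5% of those in any. A gene body peak at chr2:29065889-29066957 was listed in shGFP (724 bp) and in shLuc replicates 2 (584 bp) and 3 (859 bp).

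The map of peaks along the genes shows these positions relative to the annotated starts.

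**Figure D2:**
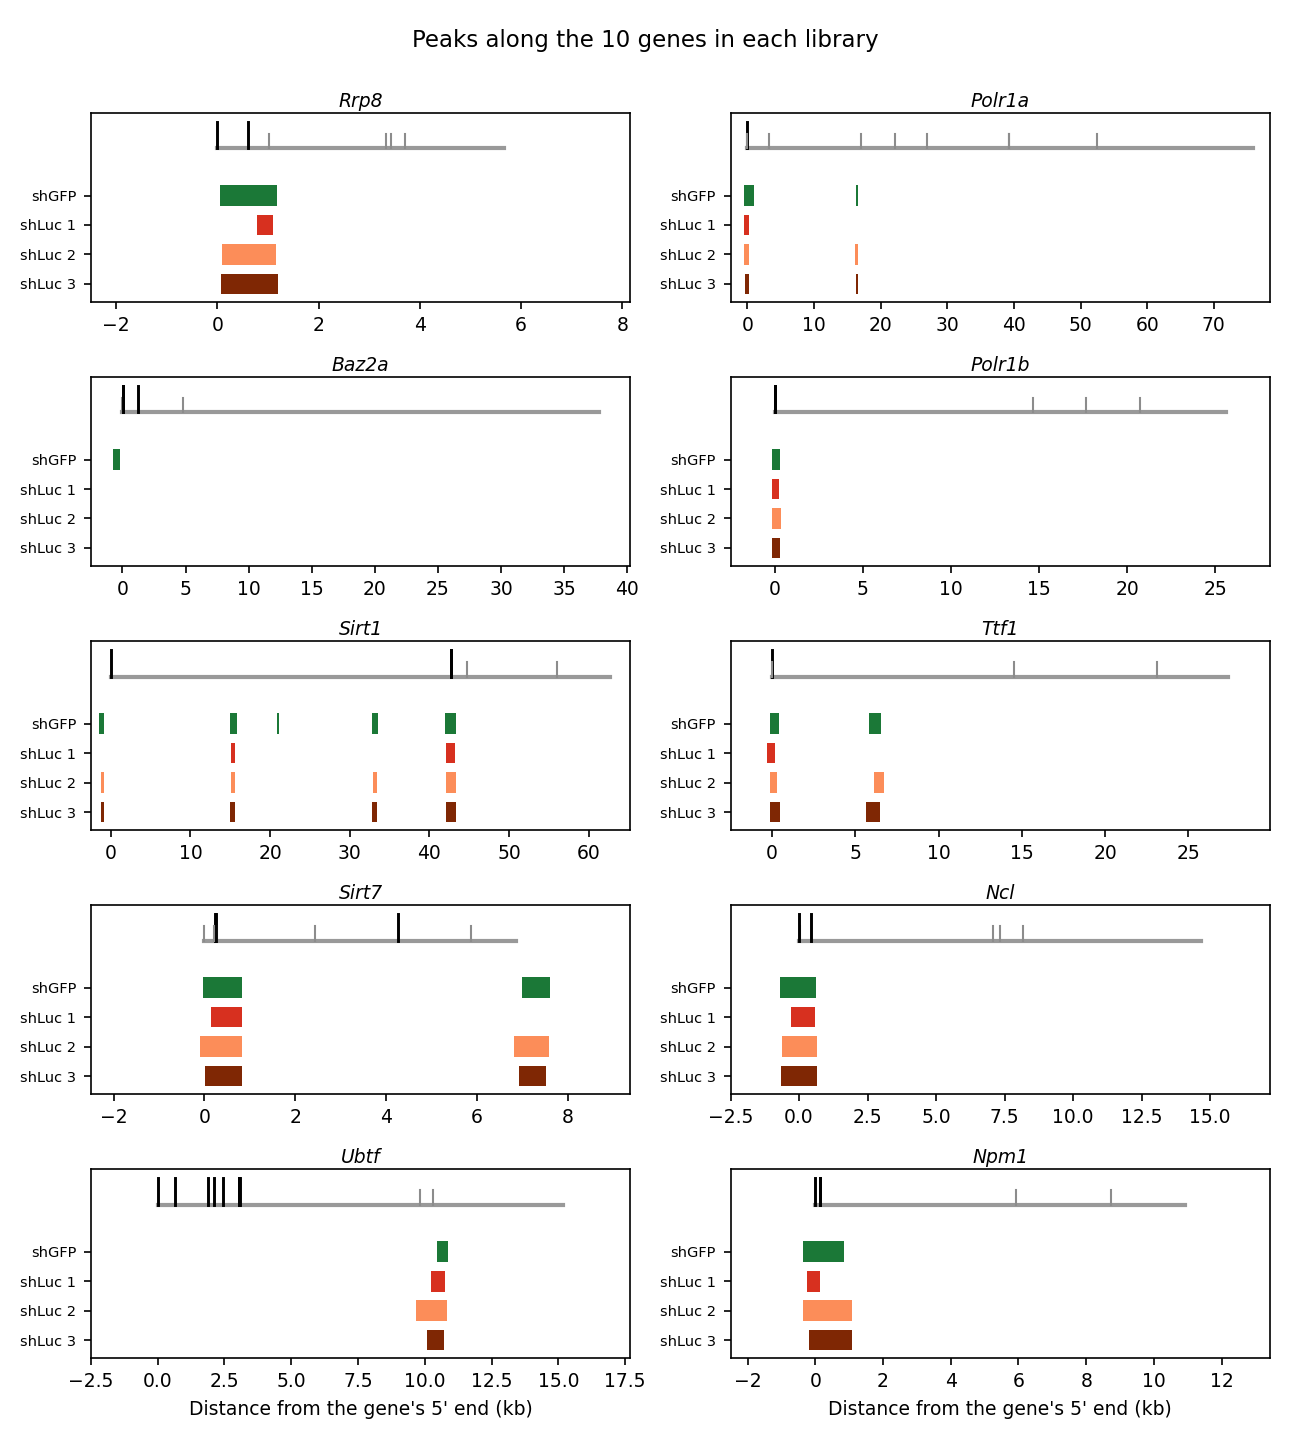
Peaks (coloured bars, 1 row per library) along each of the 10 genes, with distance from the 5′ end of the gene in kb on the x axis, read in the direction of transcription. The grey line is the gene, with long black ticks at starts of protein-coding transcripts and short grey ticks at other starts. The Ubtf peaks lie about 10 kb inside the gene, away from the black ticks, and the Sirt1 promoter peak covers starts 42669 and 42672 bp from the 5′ end.

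Of the genes of the abundant nucleolar proteins, Ncl, which encodes nucleolin, a histone and RNA binding protein (ENSMUSG00000026234.12, chr1:86344719-86359400, minus strand), had peaks of 1315 bp in shGFP and 886, 1261 and 1282 bp in shLuc (mean 1143 ± 223 bp, SD, n = 3). shGFP was wider than each shLuc library, but within 1 SD of the mean. In each library between 72.9% and 84.8% of coding promoter peaks were narrower. The non-coding gene C130036L24Rik starts within 1 kb of the same peak.

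Npm1, which encodes the histone chaperone nucleophosmin (ENSMUSG00000057113.13, chr11:33152287-33163206, minus strand), had peaks of 1218 bp in shGFP and 382, 1444 and 1253 bp in shLuc (mean 1026 ± 566 bp, SD, n = 3). shGFP lay within the shLuc range. The peak of shLuc replicate 1 was 29.3% as wide as the mean of the other libraries, much as for Rrp8 (29.6%). Of coding promoter peaks 74.98%, 9.26%, 90.0% and 82.9% were narrower in shGFP and shLuc replicates 1, 2 and 3, so the peak was wide in all but shLuc replicate 1. No start of another gene lay within 1 kb of this peak.

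Across the 9 genes with a promoter peak in every library, the shGFP peak was wider than in every shLuc library for 3 genes (Sirt1, Polr1a and Ncl; 44.3% of 9327 coding genes with such peaks) and narrower than in every shLuc library for 1 (Ubtf; 3.78%). Their median width was 1110 bp in shGFP and 525, 1077 and 826 bp in shLuc, a difference of 301 bp from the shLuc mean that exceeds the shLuc SD of 276 bp. It was 158.5 bp (SD 177) without shLuc replicate 1, 434.5 bp (SD 213) without shLuc replicate 2 and 309 bp (SD 390) without shLuc replicate 3. With Baz2a counted in shGFP the shGFP median was 986.5 bp and the difference 177 bp, within the SD. Over coding genes with a promoter peak in every library the difference was 133 bp (SD 136). Over the 9 genes, shLuc replicate 1 had a median of 77.4% of the mean width in the other libraries, close to the 75.9% of coding genes, although the range ran from 29.3% in Npm1 to 100.4% in Ttf1. The common bases had a median of 42.5% of those in any library (interquartile range 28.8% to 72.4%). The median over 8793 coding genes was higher, 60.6% (interquartile range 48.9% to 70.9%), but lay inside the interquartile range of the 9 genes.

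**Figure D3:**
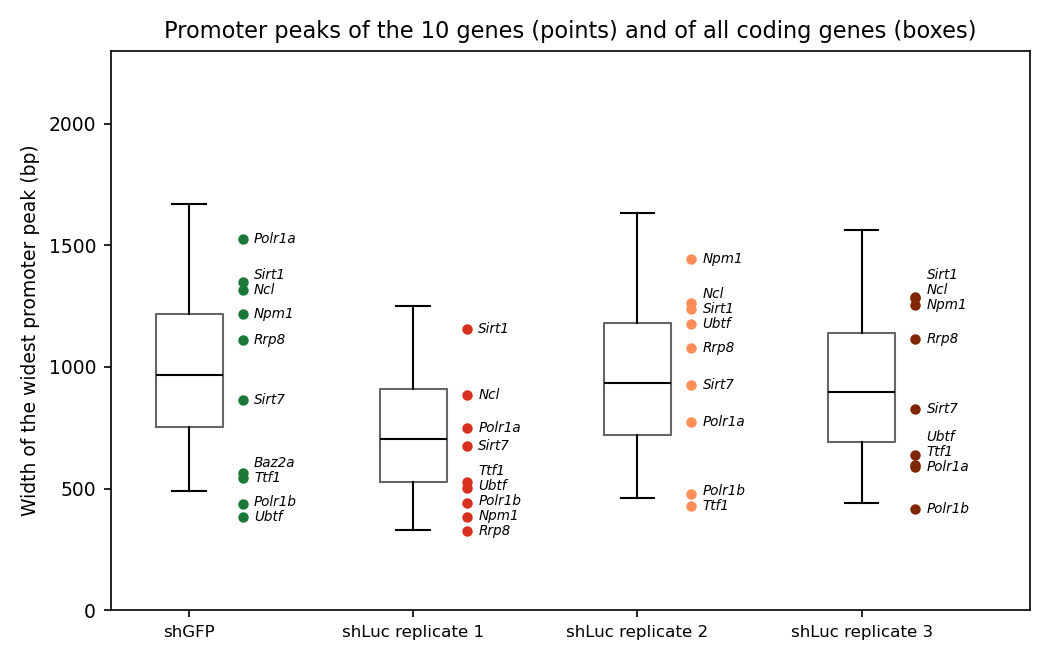
Width in bp (y axis) of the widest promoter peak in each library (x axis), as boxes for all coding genes with a promoter peak (line, median; box, 25th to 75th percentile; whiskers, 5th to 95th percentile) and as named points for the genes of rDNA transcription. Labels are shifted where points lie close together, and the points spread over most of the range of coding genes in each library.

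The other genes of the pathway were a list of 34 subunits, initiation factors, silencing enzymes and nucleolar proteins. The list was chosen with earlier results of these data known, so its share below is a description and not independent support. Of these, 24 had a promoter peak in all 4 libraries (70.6%, background 42.5%), and 1 had none, Cd3eap, which encodes a polymerase I subunit. Polr1c, a subunit shared by polymerases I and III, had peaks of 476 and 477 bp in shLuc replicates 1 and 2 only. Dnmt3b, a DNA methyltransferase, had peaks of 1068 and 1268 bp in these same libraries only, and Myc, a transcription factor that drives ribosome production, an 860 bp peak in shLuc replicate 2 only. In 4 genes the missing library was shLuc replicate 1: Taf1b, a subunit of the polymerase I selectivity factor, Dnmt3a, a DNA methyltransferase, Fbl, which encodes fibrillarin, and Mybbp1a, which encodes a nucleolar protein. Cavin1, which encodes a factor in transcript release, lacked a peak in shLuc replicate 2, and Nop2, which encodes an rRNA methyltransferase, lacked one in shLuc replicate 3.

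Counted as peaks, the 10 genes had 12 promoter peaks in shGFP and 9, 12 and 11 in shLuc (mean 10.7 ± 1.53, SD, n = 3), and the difference of 1.33 is smaller than that SD. It was 0.5 (SD 0.707) without shLuc replicate 1 and -1.67 (SD 1.53) when only the widest 17860 peaks of each list were kept. Gene body peaks outside promoters numbered 4 in shGFP and 1, 3 and 3 in shLuc (mean 2.33 ± 1.15, SD, n = 3), all of them in Sirt1 and Ttf1. The shGFP excess of 1.67 exceeds the SD, but the whole shGFP list also held 139% of the shLuc mean in peaks. No background over coding genes is given for gene body peaks, so whether the excess is usual was not tested. The excess was 1 (SD 0) without shLuc replicate 1 and 0 (SD 1) with these lists of equal length.

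Flanking peaks, which lie within 50 kb of the gene body and are neither promoter nor gene body peaks of the gene, numbered 41 in shGFP and 21, 37 and 33 in shLuc (mean 30.3 ± 8.33, SD, n = 3). The difference of 10.7 exceeds the SD. Beside it, shGFP had 135% of the shLuc mean in flanking peaks and 139% in all peaks. The difference was 6 (SD 2.83) without shLuc replicate 1 and 2 (SD 1) with lists of equal length, above the SD in each case. Its cause was not tested. Peaks of different libraries merged into 44 flanking regions, 20 of them in 4 libraries, 11 in 3, 4 in 2 and 9 in 1. A start of another gene lay within 1 kb of 26 of the 44 regions and of 15 of the 20 found in all libraries. Regions were not counted in this way around other coding genes, so whether these shares are usual was not tested.

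Sirt7 lay in the most crowded surroundings, with 7 flanking peaks in shGFP and 5, 5 and 6 in shLuc, a sum of 23 that exceeds that of 96.9% of coding genes. All 6 of its flanking regions had a start of another gene within 1 kb. Rrp8 followed with 6, 2, 6 and 5 (91.6% of coding genes had fewer). Polr1a had a single flanking peak, of 288 bp in shLuc replicate 3, 39986 bp before the gene, and 8.98% of coding genes had fewer. The median over coding genes was 8 (interquartile range 4 to 13).

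**Figure D4:**
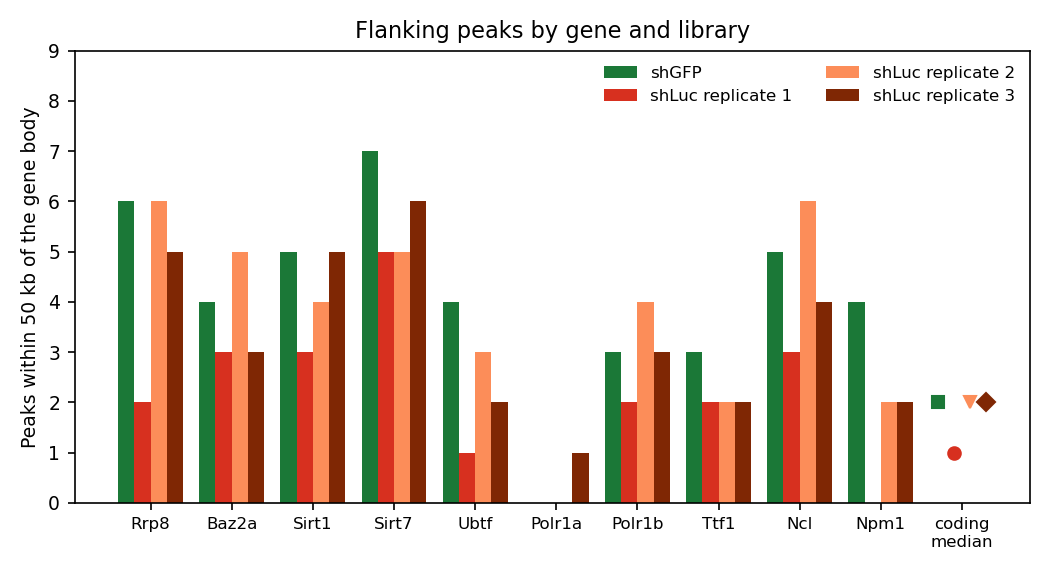
Number of flanking peaks within 50 kb of each gene (y axis) for the 10 genes (x axis), 1 bar per library, with the median over all coding genes as symbols at the right. Sirt7 has 5 to 7 in every library, and Polr1a has 1 in shLuc replicate 3 and 0 elsewhere.

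A few flanking regions were found in all 4 libraries away from any start, 5 in all. They lay 45502 bp beyond the 3′ end of Rrp8 (chr7:105685375-105686228), 20275 bp beyond that of Baz2a (chr10:128149578-128149997), 9744 bp beyond that of Sirt1 (chr10:63308656-63309261), 44033 bp before Polr1b (chr2:129056538-129056962) and 21321 bp before Ncl (chr1:86380721-86381410). Distance alone ties these regions to the genes. Near Baz2a, a distal region was listed in all libraries, while the promoter peak of the gene was listed in 1.

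Of the rDNA itself, the assembly holds a part of a copy on chromosome 17, annotated as the non-coding gene Gm26917 (chr17:39843013-39846341) and an rRNA gene (chr17:39846353-39848827). No library listed a peak within 1 kb of either. The lists hold only intervals above the threshold of the caller and reads with several equal positions were placed at random, so the accessibility of rDNA cannot be read from these files.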

How the data were processed

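ATAC-seq was performed on about 50000 E14 cells per library and sequenced on a NextSeq 500. The authors deposited 1 peak list per library with 3 columns, chromosome, start and end, with no count or score. Other than positions, these values have no unit. The submitters' processing notes name bcl2fastq, Bowtie2 and MACS2 and the build mm10. Per the study's methods, the best alignment was kept, ties were placed at random, mitochondrial reads were dropped and pairs were concordant, under a heading that also covers ChIP-seq. The peak threshold and any shift for the transposase are not given in the sources used here.

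Positions were converted to count from 1, and all 21 assembled chromosomes were used, with no peak past a chromosome end of GRCm38.p6. A promoter peak had any base within 1 kb of a GENCODE M21 transcript start, a gene body peak overlapped the gene otherwise, and a flanking peak lay within 50 kb. A peak near several genes counts for each. Region spans merge overlapping peaks of all libraries. Repeated words had 50 bases and were counted on both strands. Peak width is the only measure, so a peak that is not listed can mean closed DNA, too few reads or a locus not analysed here, which cannot be told apart.

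Libraries were grouped by their titles. The study speaks of biological replicates in general, but whether the shLuc libraries came from separate cultures is not given in the sources used here, so their SD may be technical. No pair of lists shared over 40 peaks with identical coordinates. The members and lists were chosen with earlier results of these data known. Named were all 10 genes and the genes of the 34 that lack a promoter peak in at least 1 library. Other genes with a start within 1 kb of a member's promoter peak were also named. Alternatives were the promoter window, the choice of starts, the peak centre, lists of equal length, merging within 500 bp, the flank size, and leaving out each shLuc library. Median widths over the genes with a promoter peak in every library were added after seeing the data. Python 3.11.15, numpy 2.4.6, numba 0.67.0 and matplotlib 3.10.9 were used, and the peak classes were tested on simulated data.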

Additional observations from a re-analysis of the deposited data

How the results depend on the processing

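Of 63 alternative values of 7 results, 52 stayed within the limits set for no change and 11 moved. Among these 11, 1 changed sign, the difference in promoter peaks with lists of equal length. The limits were wide. A difference counted as unchanged when it moved by less than the main shLuc SD. A fall of the count of the 34 other genes from 24 to 17 also counted as unchanged. The percent of coding genes had to stay between 41.9 and 43.2. The number of genes with a promoter peak in all libraries was 9 under most settings, 8 with protein-coding starts and 7 with 1 start per gene, where Ubtf and Sirt1 were lost. With each list cut to its widest 17860 peaks, the length of the shortest, it was 5: Baz2a, Ubtf, Polr1a, Polr1b and Ttf1 then lacked a peak in at least 1 library, since only peaks of at least 727, 221, 705 and 606 bp were kept in shGFP and shLuc replicates 1, 2 and 3, respectively. With these lists the difference between shGFP and the shLuc mean turned to -1.67 promoter peaks (SD 1.53) from 1.33 (SD 1.53). The difference was then 0 gene body peaks (SD 1) and 2 flanking peaks (SD 1). The percent of coding genes with a promoter peak in all libraries was 41.8 within 500 bp of a start, 46.4 within 5 kb, 41.4 at protein-coding starts, 38.9 with 1 start per gene and 31.6 with the widest peaks. Leaving out each shLuc library gave 42.9 to 52.5, the highest without shLuc replicate 1. Leaving out a library left the count of the 10 genes at 9 each time. The count of the 34 other genes ranged from 17 (widest peaks) to 28 (without shLuc replicate 1). The difference in median width was 177 bp (SD 276) with the main settings. Over the genes with a promoter peak in every library, chosen after seeing the data, it was 301 bp (SD 276). Under the other settings it ran from 35 bp (SD 177) without shLuc replicate 1 to 311 bp (SD 213) without shLuc replicate 2. It was 252.5 bp (SD 224) at protein-coding starts, 167 bp (SD 163) with 1 start per gene and 304 bp (SD 379) with the widest peaks. No paired analysis was possible because shGFP has 1 library and no result comes from a test. The lists do not show depth, which limits every absence of a peak.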
